A study of Mus musculus with 40 samples.

Results

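The immediate early transcription factors described here are 9 genes, Egr1, Egr2, Egr3, Fos, Fosb, Jun, Junb, Atf3 and Myc. They are a list of gene names, drawn up when earlier results of these data were known, and all 9 are listed among the 25462 genes of the female table and the 24930 genes of the male table. RNA of the left ventricle was sequenced in 10-week-old mice of 4 groups: wildtype females, Rbm20 knockout females, wildtype males and Rbm20 knockout males. Each group had 5 mice, and the labels give 2 libraries for each mouse. The question of the series is how females and males differ in the cardiomyopathy that follows loss of RBM20, a splicing regulator of the heart. The knockout is not described further in the labels: neither the allele nor the strain is given, and no transgene or treatment is named in any group. Each mouse is given by its label: ko or wt for genotype, f or m for sex, then a number.

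Immediate early genes are switched on within minutes of a stimulus, from transcription factors that are already present in the cell, and their messages and proteins are short-lived. EGR1, EGR2 and EGR3 are zinc finger factors that bind GC-rich sites. FOS and FOSB pair with JUN and JUNB to form AP-1, ATF3 is a stress-induced member of the same leucine zipper class, and MYC pairs with MAX to drive growth genes. In heart muscle these genes are known to respond to stretch, pressure load, adrenergic stimulation and ischaemia, and also to handling of the tissue.

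Reads in genes ranged from 2351987 to 16973229 per library, both from ko_m_127, with a median of 9043245 over 39 libraries. ko_f_154 is represented by 1 library, because no column of values carried the number that the labels give for its second. The values are normalized counts, that is, reads divided by a size factor of the library, averaged over the libraries of a mouse. Each sex was scaled in a table of its own, so levels are compared between genotypes within a sex and not between sexes. In whole tissue, fewer cells of a type and less RNA per cell cannot be told apart. Rbm20, as a check of the labels, had 1001 to 1342 normalized counts in wildtype females and 289 to 555 in knockout females, and 795 to 894 in wildtype males and 221 to 308 in knockout males. Its log2 change was -1.52 ± 0.14 (SE) in females and -1.63 ± 0.09 in males, and every knockout mouse lay below every wildtype mouse, as did 4.76% of all tested genes in females and 6.52% in males. The 10 markers of ventricular heart muscle were all listed, and their summed level of 478495 to 744392 was the highest of all marker lists in every mouse group.

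In knockout males 6 of the 9 genes rose: Egr1, Egr2, Egr3, Junb, Atf3 and Myc. In knockout females 3 rose: Egr3, Jun and Myc. Egr3 and Myc passed the test in both sexes, none of the 9 fell in either sex, and Fos and Fosb passed in neither. Fosb was under the filter on low values, a mean of 10 normalized counts over the mice of a sex, so 8 members were tested in each sex. The test was limma's, with Benjamini-Hochberg adjustment over all tested genes and a threshold of 0.05. Among all genes tested, 5.28% rose and 5.51% fell in knockout females, 10.8% together, and 7.6% rose and 8.29% fell in knockout males, 15.9% together. Mitochondrially encoded genes took 24.5 to 32.3% of reads in knockout females, with a median of 25.6%, and 27.4 to 33.6% in wildtype females, with a median of 31.3%. In males the ranges were 26.7 to 35.5% and 28.1 to 36.5%, with medians of 31.2% and 32.9%, and the part of this share in the changes was not tested. The median log2 change of the tested members was 0.49 in females and 0.76 in males, beside 0.0014 and -0.0012 over all tested genes. Egr2 passed the filter through the knockout mice, since its wildtype mean was under 10 in both sexes (9.54 in females and 4.67 in males), so these counts and medians describe the members and were not tested. In the same comparisons edgeR called 10.4% of genes in females and 16.5% in males, and DESeq2 called 13.2% and 18.2%. edgeR called 2 members in females, Jun and Myc, and the same 6 in males, and DESeq2 called the 3 and also Atf3 in females and the same 6 in males.

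**Figure D1:**
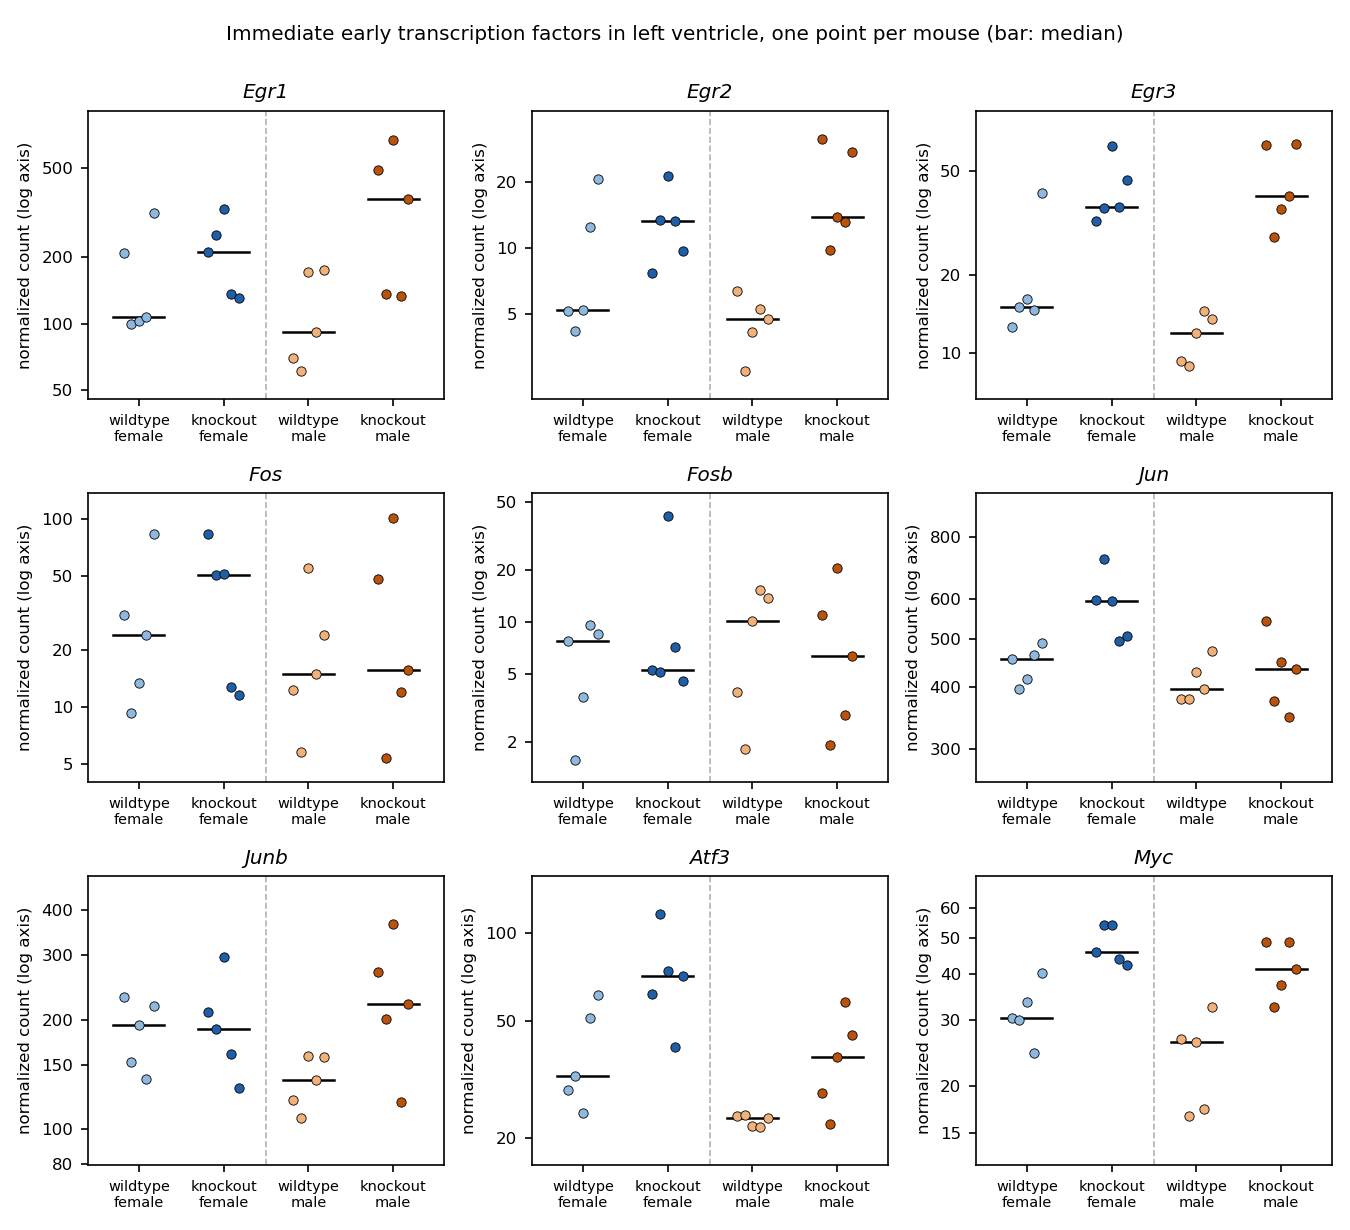
Normalized count (log axis) of each of the 9 genes in every mouse, 5 mice per group, with the median as a bar. In males every knockout mouse lies above every wildtype mouse for Egr2, Egr3 and Myc, in females for Jun and Myc, and the dashed line separates the sexes because they were scaled in separate tables.

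The largest fitted changes among the members were those of EGR factors, with Egr3, Egr2 and Egr1 leading in males and Egr3 in females. Egr3 (ENSMUSG00000033730.5, chromosome 14, 70314652 to 70320063, plus strand) encodes a zinc finger factor that acts downstream of growth factor and calcium signals. Below, values within a group run in ascending order of mouse number: ko_f_95, ko_f_150, ko_f_151, ko_f_154 and ko_f_155 in knockout females, wt_f_140 to wt_f_144 in wildtype females, ko_m_97, ko_m_106, ko_m_127, ko_m_128 and ko_m_130 in knockout males, and wt_m_112, wt_m_113, wt_m_124, wt_m_125 and wt_m_139 in wildtype males. In males Egr3 had 9.29, 8.95, 11.9, 14.4 and 13.5 normalized counts in the wildtype mice and 63.4, 62.9, 28.02, 35.8 and 40.3 in the knockout mice. The groups did not overlap: the lowest knockout male was ko_m_127 and the highest wildtype mouse was wt_m_125. The log2 change was 1.85 ± 0.22 (adjusted p = 5.6e-05), a 3.61-fold rise on the scale of log2(value + 1), which understates the change of low genes. In females Egr3 had 12.6, 15.1, 16.1, 14.6 and 41.4 in wildtype mice and 46.2, 32.2, 36.3, 62.7 and 36.5 in knockout mice. Every knockout female was above 4 of the wildtype females, but wt_f_144 was above 3 of the knockouts. The fitted log2 change was 1.16 ± 0.29 (adjusted p = 0.0196), or 2.24-fold. The female call was lost without ko_f_154 (adjusted p = 0.0520), wt_f_140 (0.0544), wt_f_141 (0.0539) or wt_f_143 (0.0504), and the male call was kept whichever mouse was left out.

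Egr2 (ENSMUSG00000037868.16, chromosome 10, 67371305 to 67378018, plus strand) is best known for its role in hindbrain patterning and in Schwann cells. Few reads lay behind it. Wildtype males had 6.39, 2.76, 4.16, 5.29 and 4.75 normalized counts and knockout males 27.5, 31.4, 9.76, 13.9 and 13.2. All 5 knockout males were above all 5 wildtype males, with ko_m_97 and ko_m_106 well above the other three. The log2 change of 1.73 ± 0.31 (adjusted p = 0.00149) was called whichever mouse was left out, except that without ko_m_106 the gene was under the filter, and its adjusted p was 0.00118 with no filter on low values. In females the wildtype mice had 5.17, 4.18, 5.22, 12.5 and 20.7 and the knockout mice 9.66, 7.70, 13.4, 21.4 and 13.3. The female groups overlapped over most of their range, and the log2 change of 0.57 ± 0.40 (95% confidence interval -0.29 to 1.44) did not pass (adjusted p = 0.403).

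Egr1 (ENSMUSG00000038418.8, chromosome 18, 34992876 to 34998037, plus strand), the founding member of the family, had 69.7, 61.4, 170.0, 91.7 and 174 normalized counts in wildtype males. Knockout males had 364, 490.0, 136, 675 and 133. ko_m_97, ko_m_106 and ko_m_128 were above every wildtype male, while ko_m_127 and ko_m_130 lay within the wildtype range. The log2 change was 1.502 ± 0.43 (adjusted p = 0.0254). The call was lost without ko_m_97 (adjusted p = 0.0543), ko_m_106 (0.0630) or ko_m_128 (0.0588), or without wt_m_112 (0.0571), wt_m_113 (0.0688) or wt_m_125 (0.0520). In females the wildtype mice had 208, 99.96, 103, 107 and 316 and the knockout mice 130.3, 210.2, 250.4, 328 and 135. The female groups overlapped, and the log2 change was 0.41 ± 0.33 (interval -0.31 to 1.13, adjusted p = 0.481).

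Of the 4 AP-1 genes, Jun passed in females, Junb in males, and Fos and Fosb in neither sex. Fos (ENSMUSG00000021250.14, chromosome 12, 85520664 to 85524047, plus strand), the classic immediate early gene, varied widely within every group. Wildtype females had 30.8, 9.29, 13.4, 24.2 and 83.3 normalized counts and knockout females 11.6, 83.2, 50.6, 51.3 and 12.9. Wildtype males had 12.3, 5.80, 55.1, 15.02 and 24.1 and knockout males 15.8, 47.8, 5.38, 101 and 12.02. In both sexes the groups overlapped almost completely. The log2 change was 0.40 ± 0.61 in females (interval -0.91 to 1.71, adjusted p = 0.739) and 0.35 ± 0.65 in males (interval -1.04 to 1.75, adjusted p = 0.774). With 5 mice per group, changes within these intervals remain compatible with the values.

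Fosb (ENSMUSG00000003545.4, chromosome 7, 19036621 to 19043976, minus strand), a close relative of Fos, was under the filter in both sexes. It had 7.73, 1.59, 3.67, 9.66 and 8.56 normalized counts in wildtype females and 4.53, 5.29, 5.16, 41.3 and 7.20 in knockout females. ko_f_154 stood far above the other mice. Males had 3.94, 1.82, 10.1, 15.3 and 13.9 in wildtype and 6.34, 11.0, 1.92, 20.6 and 2.88 in knockout mice. Neither sex separated by genotype in an exact two-sided permutation test of the group means (p = 0.49 in females and 0.83 in males, n = 5 mice per group).

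Jun (ENSMUSG00000052684.5, chromosome 4, 94937271 to 94940459, minus strand), the main partner of FOS in AP-1, was the steadiest of the 9 genes between mice. Wildtype females had 455, 397, 416, 464 and 490.5 normalized counts and knockout females 506, 597, 723, 596 and 495. Every knockout female was above every wildtype female, though ko_f_155 and wt_f_144 lay close together. Its log2 change in females was 0.38 ± 0.10 (adjusted p = 0.0274), or 1.30-fold. The call was lost without ko_f_150 (adjusted p = 0.0529) or ko_f_154 (0.0600), or without wt_f_140 (0.0535), wt_f_141 (0.0755) or wt_f_142 (0.0653). In males wildtype mice had 379, 379, 429, 396 and 473 and knockout mice 435, 542, 375, 448 and 348. The male log2 change was 0.05 ± 0.11, with an interval of -0.18 to 0.28 (adjusted p = 0.808).

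Junb (ENSMUSG00000052837.8, chromosome 8, 85701113 to 85705347, minus strand), an AP-1 partner with weaker activating capacity than JUN, passed the test in males. Wildtype males had 120.4, 108, 159, 136 and 157 normalized counts and knockout males 221, 270.3, 200.2, 367 and 119. ko_m_97, ko_m_106, ko_m_127 and ko_m_128 were above every wildtype male, and ko_m_130 was below 4 of the 5. Its log2 change was 0.71 ± 0.22 (adjusted p = 0.0408), and with single mice left out it was called only without ko_m_130 or wt_m_139. The adjusted p was 0.0514 to 0.0996 without ko_m_97, ko_m_106, ko_m_127 or ko_m_128 or wt_m_112, wt_m_113, wt_m_124 or wt_m_125. In females wildtype mice had 231, 153, 193, 137 and 217 and knockout mice 129.6, 210.2, 188, 298 and 161. The log2 change there was 0.05 ± 0.20 (interval -0.38 to 0.49, adjusted p = 0.906).

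Atf3 (ENSMUSG00000026628.14, chromosome 1, 190902493 to 190950236, minus strand), which is induced by many kinds of cell stress, was higher in most knockout mice of both sexes. The wildtype males lay in a narrow band of 23.8, 23.96, 22.02, 21.9 and 23.5 normalized counts, and knockout males had 44.9, 28.4, 22.4, 37.8 and 58.4. ko_m_127 was within the wildtype band and the other four were above it. It had a log2 change of 0.64 ± 0.20 (adjusted p = 0.0462), and with single mice left out it was called only without ko_m_106 or ko_m_127. Its adjusted p was 0.0685 to 0.106 without ko_m_97, ko_m_128 or ko_m_130 or without wt_m_112, wt_m_113, wt_m_124, wt_m_125 or wt_m_139. The male call was also lost with no filter on low values (adjusted p = 0.0665) and on library 2 of each mouse (log2 change 0.41, adjusted p = 0.445). Wildtype females had 29.3, 32.5, 24.4, 51.3 and 61.8 and knockout females 71.4, 62.1, 116, 74.1 and 41.0. There 4 knockout mice were above every wildtype female and ko_f_155 was not. The female log2 change was 0.86 ± 0.28 (interval 0.26 to 1.47), and it missed the threshold (adjusted p = 0.0669). It passed without ko_f_155 (adjusted p = 0.0266) or wt_f_144 (0.0219). The authors' deposited DESeq2 table gave an adjusted p of 0.00053 for Atf3 in females. It called 21.7% of 16576 genes in females and 23.2% of 17196 in males. Its columns are single libraries, so its p-values may count the libraries of a mouse as replicates. DESeq2 on reads summed per mouse gave Atf3 an adjusted p of 0.0264 in females, where it called 13.2% of genes.

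Myc (ENSMUSG00000022346.18, chromosome 15, 61857240 to 61862223, plus strand), a driver of ribosome synthesis and growth, separated the genotypes in both sexes. Wildtype females had 30.4, 30.1, 33.7, 24.5 and 40.3 normalized counts and knockout females 42.1, 45.7, 54.1, 54.1 and 43.9. Wildtype males had 26.7, 16.6, 26.3, 17.4 and 32.6 and knockout males 41.2, 48.6, 32.6, 37.2 and 48.6. No knockout mouse was below a wildtype mouse of its sex, but in males ko_m_127 and wt_m_139 were nearly equal. The log2 change was 0.59 ± 0.14 in females (adjusted p = 0.0159) and 0.80 ± 0.19 in males (adjusted p = 0.00814), or 1.504-fold and 1.75-fold, and both calls were kept whichever mouse was left out. For Myc the SD between the libraries of a mouse was 0.29 on the log2 scale and that between mice 0.28. With 1 library per mouse the female call was lost on library 1 (adjusted p = 0.111) and the male call on library 2 (adjusted p = 0.0630).

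**Figure D2:**
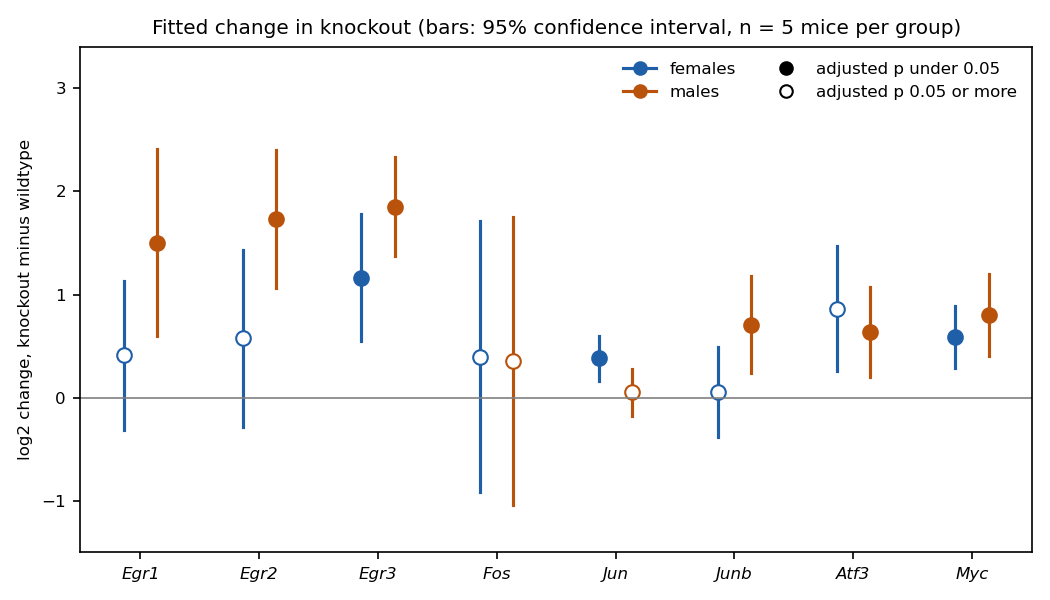
Fitted log2 change of the 8 tested genes, knockout minus wildtype, in females and males, with 95% confidence intervals (n = 5 mice per group). Filled points have an adjusted p under 0.05, which is 3 genes in females and 6 in males, and the intervals of the sexes overlap for every gene.

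Taken one gene at a time, an exact two-sided permutation test over the 10 mice of a sex can give no p below 0.0079, and that value was reached by Jun and Myc in females and by Egr2, Egr3 and Myc in males (adjusted p = 0.0286 over 18 tests). These are the genes whose groups did not overlap. All knockout mice were above all wildtype mice for 4.37% of tested genes in females and 6.14% in males. The exact p was 0.032 for Egr3 in females and for Atf3 in males, and 0.048 for Atf3 in females and for Egr1 and Junb in males, and the smallest adjusted p among these was 0.0816.

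The difference between the sexes was tested as the male change minus the female change in 1 fit of the 4 groups. No member passed. Over 12651 genes limma called 0%, whether the male change was above or below the female one, edgeR called 0% and DESeq2 0.387%, none of them a member, while 8.15% of genes had an unadjusted p under 0.05. The members with an unadjusted p under that value were Egr2 and Jun. The change of Egr2 was larger in males by 1.16 ± 0.53 on the log2 scale (interval 0.06 to 2.26, unadjusted p = 0.0405, adjusted p = 0.573). The change of Jun was smaller in males, by a log2 difference of -0.33 ± 0.16 (interval -0.65 to -0.01, unadjusted p = 0.0455, adjusted p = 0.596). The differences for Egr1 (1.09 ± 0.61), Egr3 (0.69 ± 0.39) and Junb (0.65 ± 0.33) had unadjusted p-values of 0.0874, 0.0892 and 0.0609. The calls in 1 sex alone, Egr1, Egr2, Junb and Atf3 in males and Jun in females, are therefore not shown to differ between the sexes. For Atf3 the sex that was called depended on the fit: with 1 spread estimated from all 4 groups it was called in females (adjusted p = 0.0339) and not in males (0.0999).

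Most of the 9 genes varied more between mice of a group than most genes did. The SD between mice on the log2 scale, with group means removed, was 1.30 for Fos, 1.10 for Fosb, 0.79 for Egr1, 0.64 for Egr2, 0.48 for Egr3, 0.47 for Atf3, 0.42 for Junb, 0.28 for Myc and 0.19 for Jun. The median over all tested genes was 0.171. Among the 12651 genes tested, Fos was at percentile 99.9, Egr1 at 99.4, Junb at 94.7 and Jun at 58.6. Low genes have larger counting error, so each was also placed among genes of similar mean level, where Fos was at percentile 99.8, Egr1 at 99.9, Junb at 98.6, Jun at 84.0 and Myc at 67.0. Between the libraries of 1 mouse the SD was 0.43 for Fos, 0.13 for Egr1, 0.14 for Junb and 0.06 for Jun, less than the SD between mice for each of these.

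**Figure D3:**
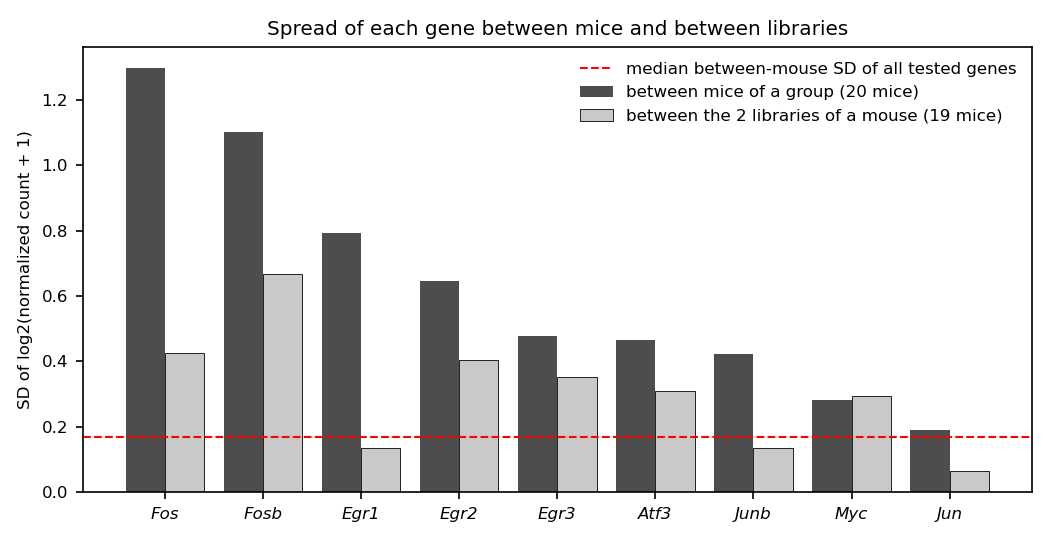
SD of log2(normalized count + 1) between mice of a group (dark bars, 20 mice) and between the libraries of a mouse (light bars, 19 mice with 2 libraries). Fos at 1.30 and Jun at 0.19 are the ends of the between-mouse range, and the dashed line is the median of all tested genes, 0.171.

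Mice that were high in one of these genes tended to be high in others of the same genotype and sex. For the 8 members with a mean of at least 10, the deviations of each mouse from its group mean were correlated over 20 mice, which gives 28 pairs. The correlation was positive in 27 of the 28 pairs, with a median Pearson r of 0.44, and 6 pairs passed after adjustment over the pairs. How often pairs of other genes correlate this much was not tested, so these counts describe the members alone. Egr1 and Fos had r = 0.89 and rho = 0.89 (permutation p = 1e-05 and 2e-05, adjusted p = 0.00014 and 0.00028), and r = 0.84 without the 2 mice farthest from the median of Egr1, ko_m_128 and wt_f_144. A p of 1e-05 is the smallest that 100000 permutations can give. Egr1 and Junb had r = 0.85 and rho = 0.87 (permutation p = 1e-05 and 2e-05, adjusted p = 0.00014 and 0.00028), and r = 0.83 without the same mice. For Egr1 and Jun, r was 0.79 and rho 0.87 (permutation p = 0.00028 and 0.0001, adjusted p = 0.00261 and 0.000933), and r was 0.82 without them. Fos was correlated with Jun (r = 0.74, rho = 0.84, permutation p = 0.00144 and 0.00016, adjusted p = 0.00798 and 0.00112, r = 0.77 without those mice) and with Junb (r = 0.73, rho = 0.78, permutation p = 0.00171 and 0.00041, adjusted p = 0.00798 and 0.0023, r = 0.65 without them).

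Egr2 and Egr3 formed the sixth pair, with r = 0.79 and rho = 0.71 (permutation p = 0.00085 and 0.00226, adjusted p = 0.00595 and 0.0105) and r = 0.65 without ko_m_106 and wt_f_144. Jun and Junb passed by rank only (r = 0.62, rho = 0.67, permutation p = 0.0202 and 0.00561, adjusted p = 0.0806 and 0.0224, r = 0.52 without ko_m_106 and ko_m_130). Atf3 and Myc passed with no other member. Within females alone no pair passed, and within males alone 3 did. The r of Atf3 with the other members ran from -0.43 (Junb) to 0.30 (Myc) within males. Within females it ran from 0.04 (Junb) to 0.77 (Jun). The pair Egr1 and Fos had r = 0.86 in females and 0.91 in males, with adjusted p = 0.0790 and 0.0246 from permutation. All genes of a mouse come from the same libraries, and a date of dissection is not among the labels, so a shared time or handling of mice was not tested.

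**Figure D4:**
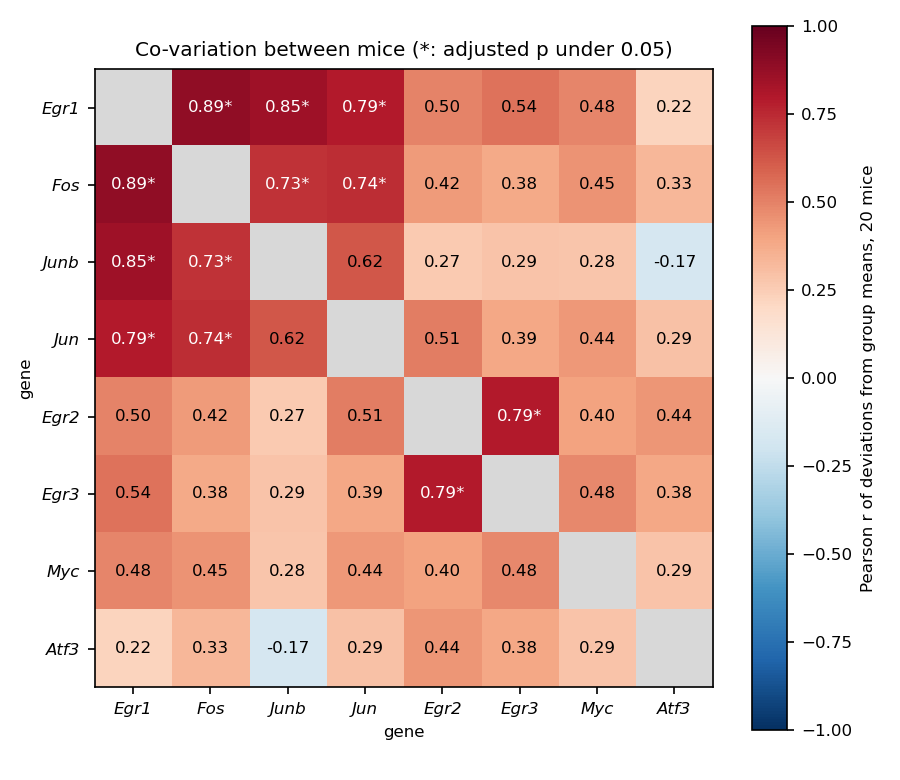
Pearson r between each pair of the 8 tested genes, from deviations of log2(normalized count + 1) from the group mean over 20 mice. Stars mark the 6 pairs with an adjusted p under 0.05: Egr1 with Fos, Junb and Jun, Fos with Jun and Junb, and Egr2 with Egr3.

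**Figure D5:**
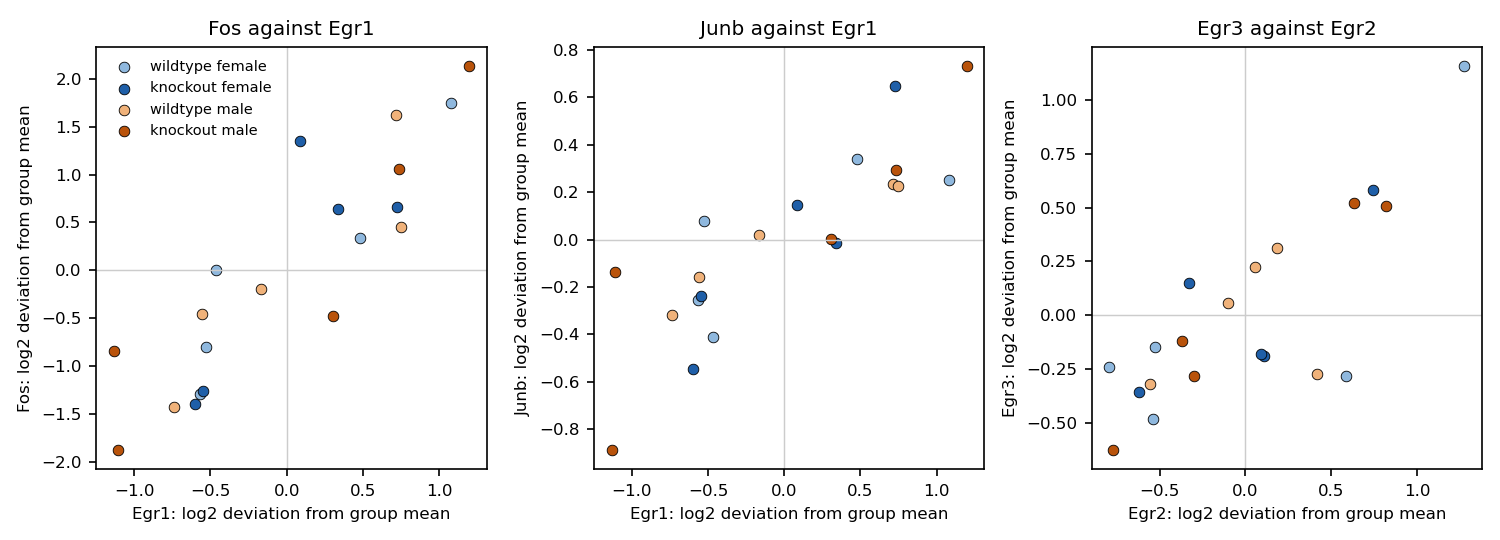
Deviation of each of 20 mice from its group mean on the log2 scale for Fos against Egr1 (r = 0.89), Junb against Egr1 (r = 0.85) and Egr3 against Egr2 (r = 0.79), coloured by group. Mice of all 4 groups lie along the same trend in the first panel, and the highest point in the third is wt_f_144.

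Outside the 9 genes, the genes most like each member over the 20 mice were taken from 9578 genes with a mean of at least 50, by the same r. The highest value was that of Ier2 with Junb, r = 0.96. Ier2 is itself an immediate early gene, and it did not pass the test for genotype in females (log2 change -0.11 ± 0.20) or in males (0.25 ± 0.16). Among the genes most like Egr1 were Ier2 (r = 0.80) and Chaserr (0.79). Fos was most like Btg2 (0.77), Dusp1 (0.77), which encodes a phosphatase of MAP kinases, and Irgm1 (0.74), and Jun was most like Klf2 (0.72), Zfp36l1 (0.71) and Dusp1 (0.71). The leading genes for the others were Plpp1, Pxylp1 and Cpt1a for Egr2 (0.83, 0.80 and 0.80), Nup107, Ip6k2 and Pigk for Egr3 (0.78, 0.77 and 0.77), Psen2, Atp6v0e2 and Rfxank for Atf3 (0.82, 0.82 and 0.79), and Creb3, Vamp4 and Cd9 for Myc (0.80, 0.79 and 0.75). These are descriptions of the highest of many values and carry no test.

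The promoters of Fos, Junb, Jun and Egr2, all in correlated pairs, are shown with letter matches to binding sequences, such as those of SRF and CREB. None was at hand for Egr1, Egr3 or Myc. Among the members' windows a CArG box was found only in windows of Egr2, though not in that of its most upstream start. Sequence more than 250 bases before a start was not searched. Whether these sequences bear on the correlations was not tested. RefSeq promoters on GRCm38.p6, an older build than the GRCm39 of the gene positions above, were at hand for 6 of the 9 members (Egr2 with 5 annotated starts, Fos, Fosb, Jun, Junb and Atf3). The 150 bases before the annotated start are printed 5′ to 3′ on the strand of the gene, and capitals mark the motif matches.
Fos, chr12:85473740-85473889, plus strand: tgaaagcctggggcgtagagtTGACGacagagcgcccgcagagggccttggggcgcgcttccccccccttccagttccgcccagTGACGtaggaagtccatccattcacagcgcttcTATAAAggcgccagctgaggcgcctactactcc
Junb, chr8:84978749-84978898, minus strand: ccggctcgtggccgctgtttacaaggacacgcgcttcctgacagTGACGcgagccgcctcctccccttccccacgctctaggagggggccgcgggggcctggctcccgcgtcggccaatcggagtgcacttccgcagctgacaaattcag
Jun, chr4:95052223-95052372, minus strand: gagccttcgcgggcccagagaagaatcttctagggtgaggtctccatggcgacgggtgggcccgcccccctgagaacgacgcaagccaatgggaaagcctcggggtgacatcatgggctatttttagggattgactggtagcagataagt
Egr2, chr10:67537719-67537868, plus strand: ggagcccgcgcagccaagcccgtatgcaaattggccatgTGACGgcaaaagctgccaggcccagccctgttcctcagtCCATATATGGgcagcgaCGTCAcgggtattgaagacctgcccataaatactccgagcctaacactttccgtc
The window searched ran from 250 bases before to 50 after each start, on both strands. In the window of Egr2 shown, a CArG box, the binding sequence of SRF, began 72 bases before the start, and a CRE half-site, spelled TGACG and known to bind CREB and ATF factors, began 111 and, on the other strand, 55 bases before it. Of the 32851 promoters in the table, 1.63% held a CArG box and 20.8% held the half-site. Fos had the half-site 129 and 66 bases before its start and a TATA box, spelled TATAAA, 33 bases before it, a motif that 13.6% of promoters held. Junb had 1 half-site, in capitals above, and a TATA box match at the start itself. Atf3, not shown, had the half-site 7 bases before its start. Fosb, also not shown, had a half-site 60 bases before its start and an EGR site, spelled GCGNGGGCG and held by 5.55% of promoters, 50 bases before it. The Jun window held none of the motifs searched. No window of the members held the full CRE, which contains the half-site and was in 1.79% of promoters, or the AP-1 site, spelled TGANTCA and in 7.81% of them. The E-box bound by MYC, spelled CACGTG and in 7.15% of promoters, was in 1 window, that of an upstream start of Egr2. A match is a description of the letters and not a measured site.

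The deposited exon tables list parts of genes, called bins, whose share of their gene had an unadjusted p of 0.05 or less. Bins of members listed there numbered 5 in females and 8 in males. Those with 9 reads or fewer over all mice had no adjusted p in the authors' deposited table, so they could not pass. None of the others, bins of Egr3, Fosb and Junb, had an adjusted p under 0.05. Of all listed bins, with or without an adjusted p, 5.53% of 15053 in females and 9.06% of 23819 in males had one under 0.05. The smallest adjusted p of a member bin was 0.135, for bin 3 of Fosb in males. Junb was listed with the same bins in both sexes. Bin 1 took 2.89 to 6.60% of the reads of bins 1 and 3 in wildtype females and 4.03 to 14.5% in knockout females, against 6.29 to 22.9% in wildtype males and 1.81 to 14.1% in knockout males. These ranges overlapped in both sexes.

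Other genes of the same response were looked at through lists that were chosen by their known roles. Of all tested genes, 5.28% rose and 5.51% fell in females, and 7.6% rose and 8.29% fell in males. Of the other AP-1 and small Maf factors 7 were tested, and Mafk, a small partner of leucine zipper factors, alone passed, rising by 0.30 ± 0.08 in females and 0.55 ± 0.08 in males on the log2 scale (adjusted p = 0.0356 and 0.00038). Among 19 other immediate early transcription factors 3 rose and 1 fell in females, and 6 rose and none fell in males. Ier5 rose in both sexes (0.73 ± 0.11 and 0.50 ± 0.09), as did Bhlhe40 (0.38 ± 0.09 and 0.79 ± 0.12), Hes1 rose in males (0.42 ± 0.08) and Ets2 fell in females (-0.38 ± 0.08). Nr4a1 and Nr4a3, nuclear receptors of the early response that were picked out after their values were seen, rose in males by 1.06 ± 0.31 and 1.10 ± 0.26. The median log2 change of this list was 0.06 in females and 0.02 in males.

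The effectors of the early response, secreted and signalling proteins made soon after a stimulus, included 23 tested genes. Beside them, 5.28% of all tested genes rose and 5.51% fell in females, and 7.6% rose and 8.29% fell in males. In females 10 rose and none fell, with a median log2 change of 0.32, and in males 6 rose and 2 fell, with a median of 0.26. Hbegf, a growth factor of the EGF family, rose by 0.97 ± 0.11 in females and 0.94 ± 0.15 in males. Ccn1, a matricellular protein, rose by 0.46 ± 0.13 in females and 0.70 ± 0.15 in males. Trib1 rose by 0.54 ± 0.09 in females, and Gadd45a had a log2 change of -0.73 ± 0.15 in males. Feedback inhibitors, which include the NAB corepressors of the EGR factors and the phosphatases of MAP kinases, gave 0 rises and 1 fall of 18 in females (Dusp5, -0.64 ± 0.13) and 2 rises of 17 in males (Spry1, 0.49 ± 0.14, and Spry4, 0.34 ± 0.10). Nab1, Nab2 and Dusp1 did not pass in either sex.

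Of 25 upstream activators, 1 rose and 3 fell in females and 2 rose and 1 fell in males. The shares over all tested genes were 5.28% rising and 5.51% falling in females, and 7.6% and 8.29% in males. Srf itself, the factor that binds the CArG box, fell in females (-0.31 ± 0.08, adjusted p = 0.0221), as did its partner Elk3 (-0.38 ± 0.08), while Mrtfb, an SRF coactivator, rose (0.38 ± 0.10). The male change of Srf was -0.02 ± 0.07, and the difference between the sexes had an adjusted p of 0.396. Mapk14, the p38 kinase, fell in both sexes (-0.27 ± 0.08 in females and -0.37 ± 0.07 in males), and Rps6ka3 (0.28 ± 0.08) and Araf (0.24 ± 0.08) rose in males. In the Myc network 1 of 12 genes passed in each sex: Mycn had a log2 change of -0.76 ± 0.23 in females and Max, the obligate partner of MYC, -0.24 ± 0.07 in males. Of 23 known Myc target genes 3 rose and 2 fell in females, and 8 rose and 1 fell in males, with medians of 0.11 and 0.17. Ccnd2, a cyclin, rose by 0.90 ± 0.09 and 0.89 ± 0.12 in females and males. Rrp12, which acts in ribosome assembly as Bop1 does, rose by 0.58 ± 0.17 and 0.89 ± 0.15. Bop1 (0.37 ± 0.07) rose in males, and Eif4e (-0.35 ± 0.08) and Ldha (-0.24 ± 0.06) fell in females.

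Of the 10 genes of the stress response around ATF3, 3 rose in females and 2 in males, and none fell. Chac1 rose by 1.54 ± 0.33 in females, Nupr1 by 0.85 ± 0.19 in females and 0.59 ± 0.14 in males, and Atf4, an activator of Atf3, by 0.28 ± 0.08 and 0.24 ± 0.07. Heat shock genes of the early response gave 0 calls of 8 in females and 1 rise of 7 in males, Hsp90aa1 (0.45 ± 0.11). All counts in these lists stand against the shares of all tested genes, of which 5.28% rose and 5.51% fell in females. In males 7.6% rose and 8.29% fell.

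Markers of other cell types moved with genotype too, and their part in the members' changes was not tested. All marker counts stand beside the shares of all tested genes. These were 5.28% rising and 5.51% falling in females, and 7.6% rising and 8.29% falling in males. Of 8 fibroblast markers 5 rose in each sex, among them Col1a1 (0.72 ± 0.15 in females and 0.84 ± 0.18 in males), and their summed level was 28291 to 34186 in wildtype and 36250 to 48969 in knockout females, and 19760 to 32293 and 29814 to 39465 in males. Of 8 endothelial markers 2 fell in each sex, with sums of 13180 to 14470 and 12017 to 12783 in females and 12060 to 13703 and 8405 to 10871 in males. Of 8 mural markers 1, Abcc9, fell in both sexes (sums of 10717 to 12430 and 8008 to 10929 in females, 8218 to 9864 and 7205 to 8172 in males). No macrophage marker of 8 passed (2648 to 4107 and 2442 to 3496 in females, 2381 to 3611 and 2121 to 3032 in males). In males all 3 tested neutrophil and platelet markers fell, such as Ppbp (-2.33 ± 0.48), with sums of 149.9 to 686 and 109.8 to 134, while none of 3 passed in females (123 to 195 and 93.2 to 164), and the neutrophil gene Retnlg was under 1 normalized count in all mice of every group but wildtype females.

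Red blood cell markers fell in males for 2 of 4 tested (17120 to 39989 and 11403 to 22309) and for none of 4 in females (10370 to 35463 and 7742 to 20076). Lymphocyte markers were all under the filter, with sums of at most 29.8. Fat cell markers rose in females for 3 of 6, with sums of 54.2 to 705 in wildtype and 452 to 4351 in knockout mice, and for 0 of 2 in males (47.2 to 180.5 and 37.9 to 328). The filter takes the mean over both genotypes of a sex, so a fat cell marker could enter through the knockout females alone. The counts of these markers describe each sex and were not compared between the sexes. None of the 10 ventricular muscle markers passed in either sex.

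Of the atrium markers 2 of 7 rose in females, and in males 2 rose and 2 fell, the rises in both sexes being Nppa, which the failing ventricle is known to express, and Pam. The falls in males were Myl7 and Stard10. The median log2 change of the 7 tested was 2.37 in females and -0.62 in males. The summed level of the atrium markers was 4882 to 11207 in wildtype and 8686 to 41352 in knockout females. In males it was 3926 to 8215 and 9072 to 15412, and Bmp10 was under 1 in every knockout male. Myl7, which marks atrial muscle, was above 500 normalized counts in ko_f_151 (8051) and ko_f_154 (1223), wt_f_144 (1416) and wt_m_112 (692). Without these mice Egr3 and Myc were called in females, and Jun was not (log2 change 0.30, adjusted p = 0.0651). In males Egr2, Egr3 and Myc were called without wt_m_112, and Egr1, Junb and Atf3 were not, with log2 changes of 1.36, 0.67 and 0.65 (adjusted p = 0.0571, 0.0787 and 0.0685) beside 1.502, 0.71 and 0.64 with all 5 wildtype males.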

How the data were processed

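The labels name 40 libraries of left ventricle RNA, 2 from each of 20 mice. Per the labels' protocols, RNA was isolated with TRI Reagent and sequenced on a BGISEQ-500, and per the submitters' processing notes reads were aligned with STAR 2.7.10a to GRCm39 and tested with DESeq2. The program that counted reads, its annotation release and its use of strand are not given in the sources used here, so reads of overlapping antisense genes cannot be told apart.

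The gene tables, 1 per sex, hold a signal that the authors made by dividing read counts by a size factor of each library. This was checked: in all 39 libraries used, 100% of values were whole reads to a tolerance of 1e-06. Exon tables deposited by the authors give raw counts for each bin. The authors' deposited log2 fold changes and p-values were used as an alternative. The number of columns of per-sample values matched to no sample was 1, and it was not used. That column is in the female table, and the label of the second library of ko_f_154 gives another column number. The female and male tables were scaled separately.

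Libraries were averaged per mouse (n = 5 per group). The main test was that of limma 3.58.1 (R 4.3.3), two-sided, on log2 of each value plus a pseudocount of 1, allowing the variance to follow the mean. Only genes averaging 10 or more in the mice compared were tested, p-values were adjusted by Benjamini-Hochberg over all of them, and the threshold was 0.05. Counts would have been tested with edgeR. As the deposited values are normalized, count models on the recovered reads (edgeR 4.0.16, DESeq2 1.42.0) were alternatives, as were other pseudocounts, filters, scaling, single libraries and mice left out. The script was also run on simulated counts in which every gene had the same spread beyond counting error. That run does not describe genes as variable as Fos. Intervals are limma's. Deviations from group means were permuted within groups.

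The members and lists were chosen with earlier results of these data known. Genes named are the members, up to 3 genes past the threshold with the smallest p per list and sex, up to 2 per marker list, the 3 genes most like each member, and Rbm20, although a few of these are not reported here.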

Additional observations from a re-analysis of the deposited data

Results flagged for a closer look

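In 36 groups of 5 mice, 1 for each member, sex and genotype, a mouse was set apart where its gap to the nearest other mouse, divided by the range of the group, was above Dixon's critical value of 0.71. Gap and range were taken on log2 of the normalized count plus 1. Chance sets apart about 1 in 20 groups, and 2 of 36 were. wt_f_144 had 41.4 normalized counts of Egr3, the highest of the wildtype females, with a gap of 0.796 of the range. The same mouse had the highest Egr1, Egr2, Fos, Jun, Atf3 and Myc of its group and a Myl7 of 1416. Without it the female log2 change of Egr3 was 1.45. ko_f_154 had 41.3 normalized counts of Fosb, the highest of the knockout females, with a gap of 0.806 of the range. This mouse is the one with 1 library matched to values, of 6166106 reads. The labels name a second library for it that could not be matched, so no second library used here bears on its value.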

How the results depend on the processing

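The count of members called in females was 3. It was 1 with a filter at a mean of at least 50 (4 members tested) and 1 on library 2 of each mouse, and with single mice left out it ranged from 1 to 4, being 1 without ko_f_154 or wt_f_140 or wt_f_141, each time Myc. The count in males was 6. It was 3 without the trend in limma, 3 without mice with a Myl7 of at least 500, 2 with the filter at 50 (3 members tested), and 3 to 5 with single mice left out, being 3 without ko_m_97, ko_m_106 or ko_m_128 or wt_m_112, wt_m_113 or wt_m_125. In males leaving out mice by Myl7 removed wt_m_112 alone, so it was the same fit as that without wt_m_112. The fewer members tested account for the lower counts at the higher filter; the cause of the others was not tested. The count of members that differed between the sexes was 0 under every alternative run. The count of member pairs that were correlated between mice was 6 over 20 mice, 0 within females and 3 within males, where fewer mice entered.

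Directions turned only for members that had not passed. The female log2 change of Junb, 0.05, was -0.15 on library 2, -0.094 without the mice high in Myl7, and -0.11 to 0.19 with single mice left out. With single mice left out the male change ranged from -0.037 to 0.122 for Jun and from -0.18 to 0.82 for Fos. The difference between the sexes for Fos, -0.04, was 0.37 in edgeR, 0.36 in DESeq2, 0.082 with TMM scaling and 0.51 on library 1, and it ranged from -0.58 to 0.43 with single mice left out. That for Myc was -0.053 on library 2. Of the remaining values for single genes, 525 kept direction and side of the threshold, 47 lost a call and 5 gained one. The male values without wt_m_112 are repeated in these counts under the Myl7 setting.

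No paired analysis was possible because the labels give the groups no shared mouse numbers. The precision is set by 5 mice per group, and at the lowest levels also by counting error.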
